A study of Homo sapiens with 12 samples.

Results

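The 9 genes described here encode secreted angiogenic ligands, namely VEGFA, VEGFB, VEGFC and PGF of the vascular endothelial growth factor (VEGF) family, PDGFA, PDGFB, PDGFC and PDGFD of the platelet-derived growth factor (PDGF) family, and FGF2, the basic fibroblast growth factor. They were selected by gene symbol, by a rule that applies no threshold to measured values, and are 9 of the 45478 genes in the table of raw gene counts. All 9 passed the filter on low counts and were tested together with the other genes, 19929 in all.

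The libraries measured messenger RNA of 4 cultures of clear cell renal cell carcinoma (ccRCC), a kidney cancer, with 3 libraries each. The parental lines were 786-O and A498, both deficient in VHL. By the study and the labels, the other cultures, resistant 786-O and resistant A498, were derived from them by exposure to sunitinib. This drug is an inhibitor of VEGF, PDGF and other receptor tyrosine kinases. Resistant 786-O was selected at 4 µM and resistant A498 at 2 µM, for 4 months or more than 20 passages, and the treatment label of all 12 libraries is none. The library titles also carry the code veh, which the labels do not explain. Each resistant line is a single selected culture that the study also calls a clone, so its values stand for that culture and not for resistance in general.

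VEGF ligands act mainly on receptors of endothelial cells (FLT1, KDR and FLT4) and on the neuropilin co-receptors NRP1 and NRP2, whereas PDGF ligands act on PDGFRA and PDGFRB of mural cells and fibroblasts. FGF2 binds the FGF receptors and lacks a classical secretion signal. In ccRCC, loss of VHL stabilizes hypoxia-inducible factors, and VEGFA and PDGFB are known targets of these factors, which is why drugs such as sunitinib are given against this tumor.

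VEGFB and PGF were the members with higher transcript levels in both resistant cultures, and the stretches of 250 bases just before an annotated start of each gene are shown to give the sequence context of these changes. They are taken from RefSeq (GRCh38.p14), which gave entries for 6 of the 9 members; VEGFA, PDGFB and PDGFC had none. Capitals mark matches on either strand to ACGTG or GCGTG, the core letters of a hypoxia response element, and to GGGCGG, the GC box. The VEGFB window is chr11:64234334-64234583 on the plus strand, and the PGF window, before the more distal of its annotated starts, is chr14:74955765-74956014 on the minus strand.
VEGFB: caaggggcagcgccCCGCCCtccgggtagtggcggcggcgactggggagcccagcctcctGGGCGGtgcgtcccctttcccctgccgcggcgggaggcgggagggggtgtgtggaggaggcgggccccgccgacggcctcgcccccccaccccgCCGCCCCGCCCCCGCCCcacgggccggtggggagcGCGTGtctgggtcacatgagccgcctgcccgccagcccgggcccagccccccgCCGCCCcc
PGF: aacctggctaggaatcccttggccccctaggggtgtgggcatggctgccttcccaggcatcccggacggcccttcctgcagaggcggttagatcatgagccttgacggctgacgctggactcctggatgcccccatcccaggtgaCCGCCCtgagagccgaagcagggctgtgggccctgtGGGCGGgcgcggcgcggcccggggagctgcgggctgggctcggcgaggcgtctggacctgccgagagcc
The VEGFB window held 1 match to ACGTG or GCGTG and 6 matches to GGGCGG, with overlapping matches counted separately, and the PGF window held 0 and 2. A window before the more proximal PGF start, chr14:74955598-74955847, held 1 and 3. Among 35116 annotated promoter windows of the same length, 43.2% held ACGTG or GCGTG and 42.6% held GGGCGG, so such matches are common and mark no site. The GC content was 82.8% in the VEGFB window and 70.8% in the PGF window.

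Some facts about the libraries bear on all values below. Total counts ranged from 40845091 to 47972092 in 786-O, 42643735 to 46888482 in resistant 786-O, 21686648 to 34951585 in A498 and 20042519 to 25831163 in resistant A498. The libraries labelled resistant A498 resembled 786-O more than A498. Counts scaled to the size of their library are given as CPM. Of 62 genes at 10 CPM or more in A498 and with at most 3 counts in each 786-O library, the median level in the libraries labelled resistant A498 was 0.362% of that in A498, and 26 genes of the reverse pattern stood at a median of 79.9% of their 786-O level. The labels were kept as given, and each resistant A498 value is therefore set against both A498 and 786-O. Replicate 2 of resistant 786-O stood apart from its group, with an SD of log2 differences from the other libraries of 0.29 against 0.07 to 0.18 in the remaining 11 libraries. Each group also carries its own batch label, so batch and group cannot be told apart, and since nothing states that the 3 libraries of a group came from separate cultures, the p-values measure only the spread between these libraries.

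The labelled cell type was checked with fixed markers. Of 10 kidney carcinoma markers, 8 to 9 had a mean of at least 1 CPM in each group, with summed levels from 4674 to 9535 CPM across libraries. Most of each sum was VIM, a general mesenchymal gene, with group means from 3057 to 6812 CPM. CA9, a marker of clear cell carcinoma, was at 1.29 CPM in A498 and had at most 2 counts in any library of the other groups. T cell markers summed to at most 0.656 CPM and endothelial markers to between 1.63 and 5.32 CPM. Mural cell and fibroblast markers, which tumor lines of mesenchymal character can express, summed to 21.6 to 22.0 CPM in 786-O, 34.8 to 37.0 in resistant 786-O, 73.8 to 84.1 in A498 and 43.1 to 47.2 in resistant A498, and their part in the results was not tested.

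To compare levels between genes, CPM were divided by gene length in kb. VEGFA was the most abundant member per length of its canonical transcript in all 4 groups, at 67.6 ± 0.651 CPM per kb in 786-O, 58.5 ± 4.92 in resistant 786-O, 69.8 ± 2.40 in A498 and 49.3 ± 1.30 in resistant A498 (SD, n = 3). With the union of all annotated exons as the length, which for VEGFA is 14431 bases against 3609 in the canonical transcript, VEGFB came first in 786-O, resistant 786-O and resistant A498 and FGF2 first in A498. Under either length PGF and PDGFD were the lowest 2 members in every group, with PDGFD at 0.0106 and PGF at 0.787 CPM per kb of canonical transcript in resistant A498. The remaining members lay between 5.57 CPM per kb (PDGFA in resistant A498) and 45.2 CPM per kb (VEGFB in resistant 786-O) of canonical transcript.

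**Figure D1:**
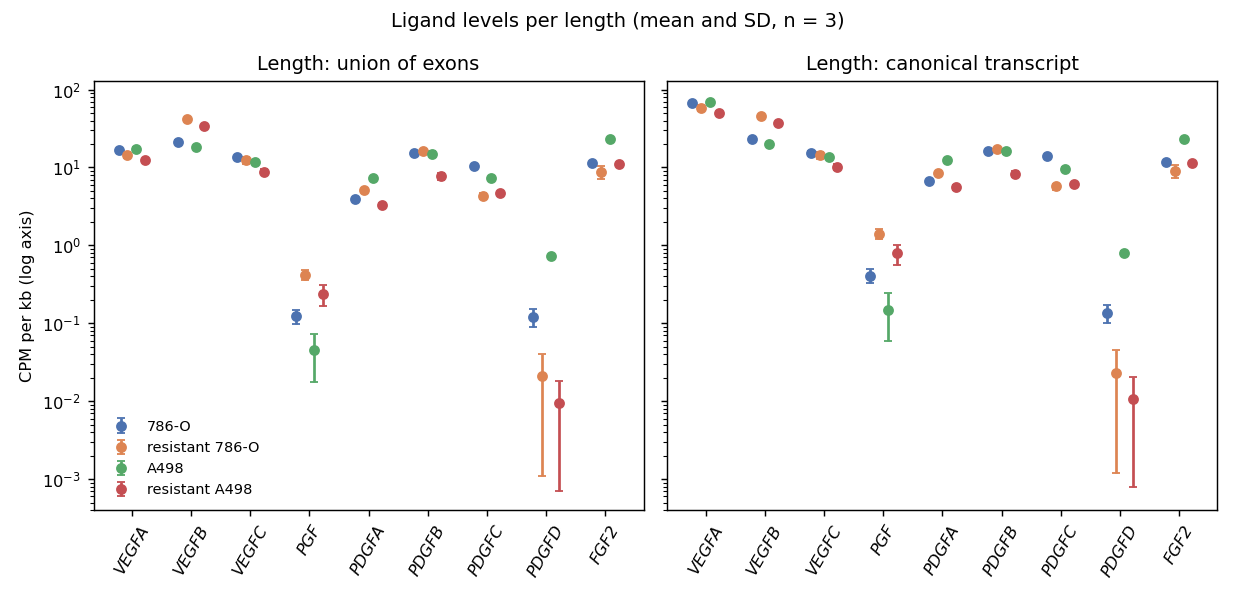
Levels of the 9 ligand transcripts in CPM per kb on a log axis, with the union of exons (left) or the canonical transcript (right) as the length. Points are means of 3 libraries of a group and bars are SDs. PGF and PDGFD lie below all other members in every group, whereas the place of VEGFA depends on the length used.

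The main question was how the ligand transcripts differed between each resistant culture and its labelled parental line. In resistant 786-O against 786-O, 7 of the 9 ligands were called changed by edgeR's quasi-likelihood test at a Benjamini-Hochberg adjusted p under 0.05, against 68.5% of all genes tested. VEGFB, PGF and PDGFA were higher (35% of genes were called higher) and VEGFA, PDGFC, PDGFD and FGF2 were lower (33.5%). In resistant A498 against A498, 9 of 9 were called, against 72.7% of genes, with VEGFB and PGF higher (36.3%) and VEGFA, VEGFC, PDGFA, PDGFB, PDGFC, PDGFD and FGF2 lower (36.4%). In resistant A498 against 786-O, 8 of 9 were called, against 63.6% of genes, with VEGFB and PGF higher (31.6%) and VEGFA, VEGFC, PDGFA, PDGFB, PDGFC and PDGFD lower (32.1%).

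The first 2 of these comparisons share no library. Between them, 2 of 9 ligands were called higher in both (VEGFB and PGF), against 15.2% of genes, 4 of 9 lower in both (VEGFA, PDGFC, PDGFD and FGF2), against 14.3%, and PDGFA was called in opposite directions. With 786-O as the reference for resistant A498, FGF2 was not called, and the comparisons then share the 786-O libraries. The resistant 786-O calls of VEGFA and FGF2 were each lost under some other processing, as given below. The median log2 fold change of the 9 ligands was -0.11 in resistant 786-O over 786-O, -0.66 in resistant A498 over A498 and -0.46 in resistant A498 over 786-O, beside medians over all genes tested of 0.03, -0.0041 and 0.0029. With a log2 fold change beyond 1 also required, 3, 4 and 2 of the 9 ligands were called, against 22%, 30.8% and 20% of genes. The libraries of the groups compared did not overlap for 8, 9 and 8 of the 9 ligands in these comparisons, against 68.9%, 78.5% and 73.4% of genes. Without replicate 2 of resistant 786-O, 8 of 9 ligands were called in resistant 786-O over 786-O. The share of all genes called in that run was not computed, so this count has no background. Between the other pairs of groups, 7 of 9 ligands were called in 786-O over A498 (74.2% of genes), in resistant A498 over resistant 786-O (46.1%) and in resistant 786-O over A498 (74.2%), or 3, 1 and 4 of 9 beyond a log2 fold change of 1 (31.9%, 7.3% and 31%). The change differed between the lines as labelled for 7 of 9 ligands (68.3% of genes), and by more than 1 on the log2 scale for 3 (35.1%). A group difference in bulk RNA cannot tell fewer expressing cells from less RNA per cell.

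**Figure D2:**
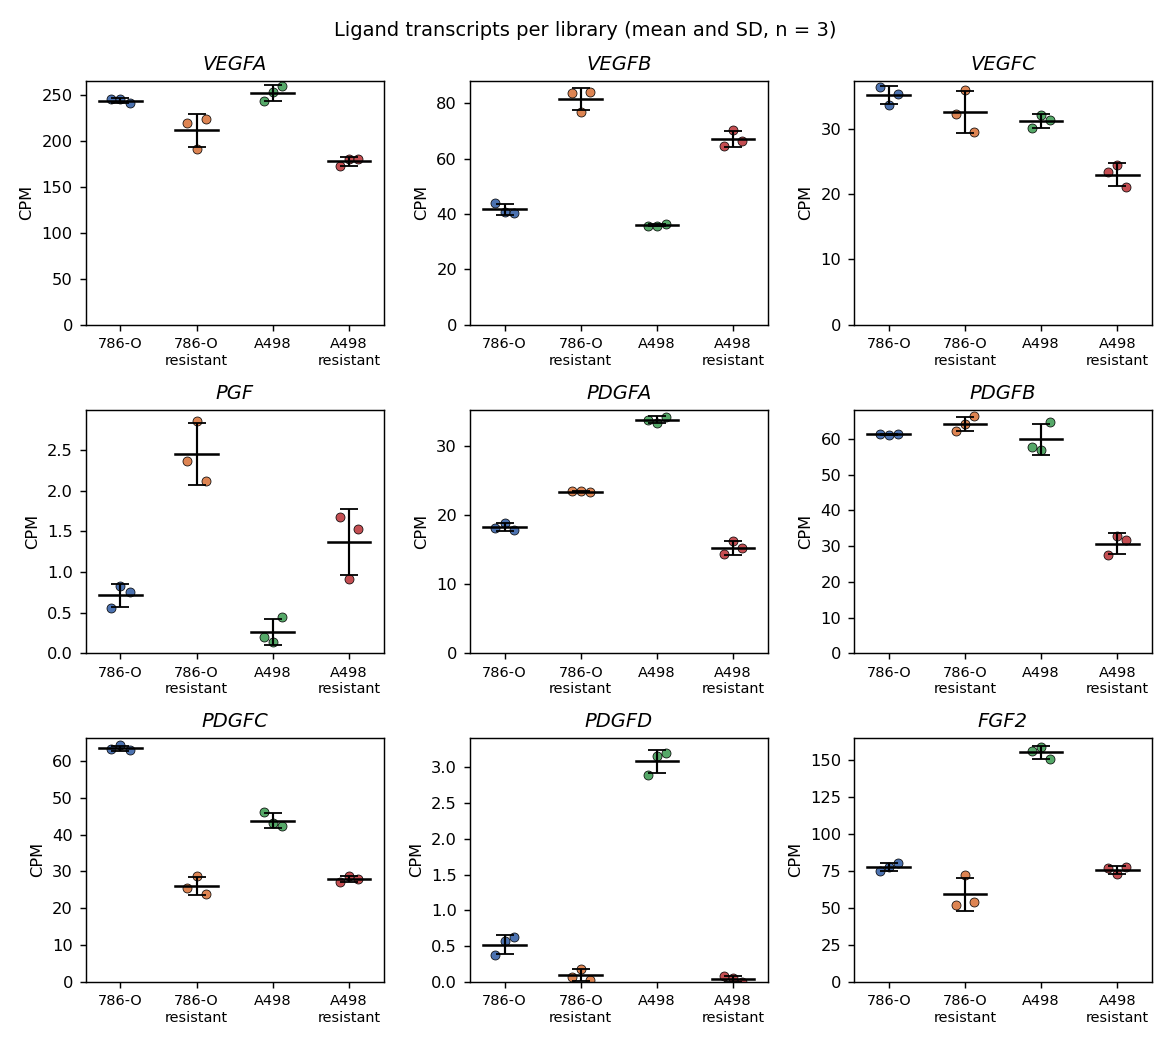
Level of each ligand transcript in CPM, on linear axes that start at 0 and differ between panels. Points are single libraries, horizontal lines are means and bars are SDs of 3 libraries per group. VEGFB and PGF stand higher in resistant 786-O and resistant A498 than in 786-O and A498, PDGFC and PDGFD stand lower, and PDGFB is low in resistant A498 alone.

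VEGFA (ENSG00000112715.23, chr6:43770184-43786487, plus strand) is the main driver of endothelial growth and permeability. It stood at 245, 245 and 241 CPM in replicates 1 to 3 of 786-O and at 219, 191 and 224 CPM in resistant 786-O. The A498 libraries held 243, 253 and 260.1 CPM, and those labelled resistant A498 held 172, 180.3 and 181 CPM. In these CPM, which use TMM library sizes, all 6 resistant libraries thus lay below all 6 parental libraries, and the parental groups overlapped. Scaled by total counts alone, the resistant 786-O libraries overlapped those of 786-O. The decrease was small, with a log2 fold change of -0.21 ± 0.05 (SE; edgeR adjusted p = 0.00383) in resistant 786-O over 786-O, -0.50 ± 0.06 (edgeR adjusted p = 9.06e-07) in resistant A498 over A498 and -0.46 ± 0.06 (edgeR adjusted p = 3.91e-06) in resistant A498 over 786-O. The first of these was -0.06 and no longer called when libraries were scaled by size alone, and -0.45 when trends with GC content and length were removed. 786-O and A498 did not differ beyond their spread (log2 difference -0.05, 95% confidence interval -0.17 to 0.07), and resistant A498 lay below resistant 786-O (-0.25; edgeR adjusted p = 0.00193).

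VEGFB (ENSG00000173511.9, chr11:64234584-64239264, plus strand), a ligand of FLT1 linked to lipid uptake and vessel survival, moved the other way. The 786-O libraries held 44, 40.7 and 40.4 CPM and the resistant 786-O libraries 83.8, 76.9 and 83.9 CPM. The A498 libraries held 35.7, 35.7 and 36.5 CPM, and those labelled resistant A498 held 64.6, 70.2 and 66.4 CPM. No resistant library overlapped a parental library. The level was 1.96-fold higher in resistant 786-O than in 786-O (log2 0.97 ± 0.05; edgeR adjusted p = 6.88e-10), 1.86-fold higher in resistant A498 than in A498 (0.90 ± 0.06; edgeR adjusted p = 1.21e-09) and 1.61-fold higher in resistant A498 than in 786-O (0.69 ± 0.05; edgeR adjusted p = 3.95e-08). In the order of groups, resistant 786-O was above resistant A498, which was above 786-O and then A498, and each step between neighbors was called (resistant A498 over resistant 786-O -0.28, edgeR adjusted p = 0.000547; 786-O over A498 0.21, edgeR adjusted p = 0.00286). The step between the resistant groups reversed in sign when trends with GC content and length were removed. The difference in rise between the lines was not called (log2 difference -0.07, 95% confidence interval -0.23 to 0.09), but this difference was 0.54 and called when trends with GC content and length were removed.

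The opposite moves of VEGFA and VEGFB changed the ratio of their counts, which does not depend on the scaling of a library. Trends with GC content and length were not removed from these counts and can still enter the ratio. VEGFA had 5.57 to 6.02 counts per count of VEGFB in 786-O and 2.48 to 2.67 in resistant 786-O. The ratio was 6.80 to 7.13 in A498 and 2.57 to 2.72 in the libraries labelled resistant A498. The ranges of the resistant groups overlapped each other and lay apart from both parental groups. This ratio and that of PDGFB to PDGFC below were chosen after the values were seen, and they are given with no test.

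**Figure D3:**
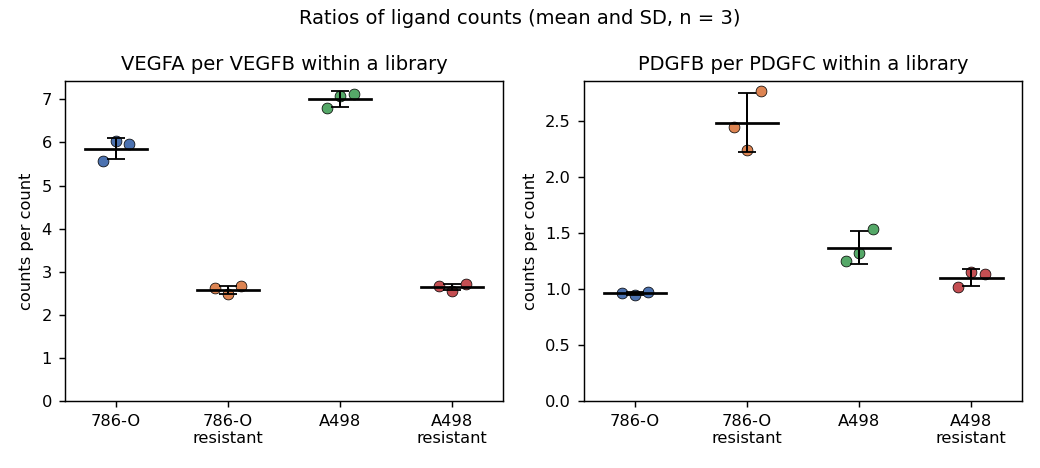
Ratio of VEGFA to VEGFB counts (left) and of PDGFB to PDGFC counts (right) in each library, on linear axes from 0. Points are libraries, horizontal lines are means and bars are SDs of 3 libraries per group. VEGFA per VEGFB lies between 2.48 and 2.72 in all 6 resistant libraries, and PDGFB per PDGFC is highest in resistant 786-O.

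VEGFC (ENSG00000150630.4, chr4:176683538-176792922, minus strand), the ligand of FLT4 that drives lymphatic growth, was at 36.4, 33.6 and 35.3 CPM in 786-O and 32.2, 36 and 29.5 CPM in resistant 786-O. It was at 30.0, 32.1 and 31.4 CPM in A498 and at 23.4, 24.4 and 21.1 CPM in the libraries labelled resistant A498, which were the lowest 3 of the 12. The resistant 786-O libraries overlapped both 786-O and A498. VEGFC was lower in resistant A498 than in A498 (log2 -0.44 ± 0.08; edgeR adjusted p = 0.000116) and than in 786-O (-0.61 ± 0.08; edgeR adjusted p = 4.72e-06), and the first value was -0.20, still called, with GC and length trends removed. In resistant 786-O over 786-O the difference of -0.11 (95% confidence interval -0.26 to 0.04) was not called, but it was -0.19 and called without replicate 2 of resistant 786-O.

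PGF (ENSG00000119630.14, chr14:74941834-74955626, minus strand), placental growth factor, binds FLT1 and was among the rarest members. Raw counts over 3 libraries summed to 87 in 786-O, 338 in resistant 786-O, 22 in A498 and 103 in resistant A498. The levels were 0.552, 0.827 and 0.754 CPM in 786-O, 2.37, 2.86 and 2.12 in resistant 786-O, 0.203, 0.139 and 0.441 in A498, and 1.68, 0.909 and 1.52 in the libraries labelled resistant A498. All resistant libraries were above all parental ones. The parental lines also differed, with PGF 2.68-fold higher in 786-O than in A498 (log2 1.42 ± 0.38, edgeR adjusted p = 0.00336). PGF was 3.42-fold higher in resistant 786-O than in 786-O (log2 1.77 ± 0.24; edgeR adjusted p = 1.17e-05), 5.21-fold higher in resistant A498 than in A498 (2.38 ± 0.36; edgeR adjusted p = 2.60e-05) and 1.95-fold higher in resistant A498 than in 786-O (0.96 ± 0.28; edgeR adjusted p = 0.00731). Ratios of the summed counts were also taken after scaling by the TMM library sizes that CPM use. Their exact counting intervals were 2.69 to 4.38, 3.33 to 8.85 and 1.46 to 2.65 (95%, counting error only). Resistant 786-O was also above resistant A498 (resistant A498 over resistant 786-O -0.81; edgeR adjusted p = 0.0118), a difference that was -0.60 and not called without replicate 2 of resistant A498.

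**Figure D4:**
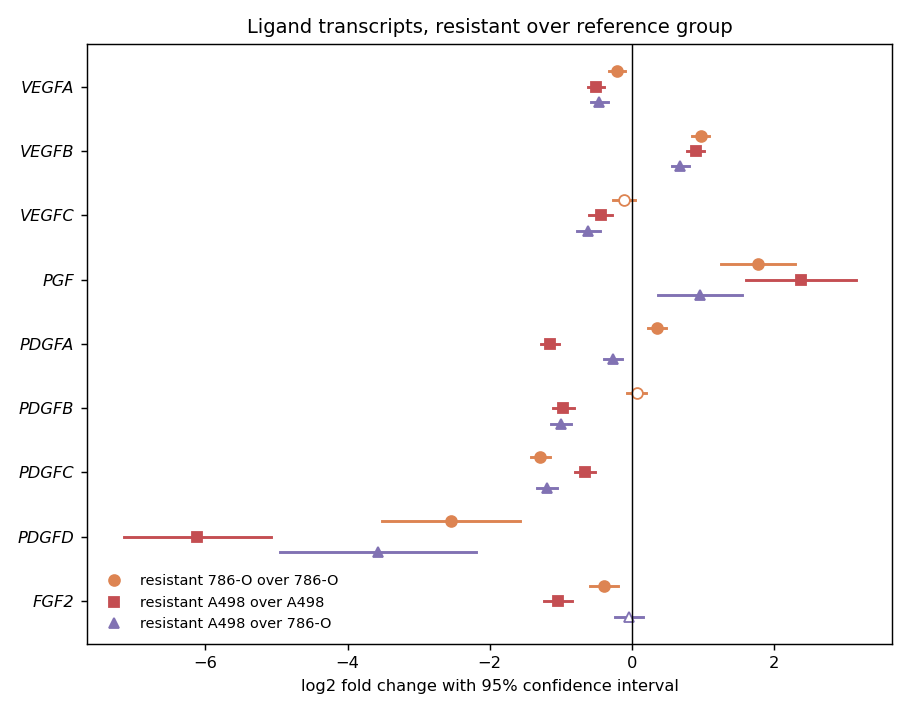
Log2 fold change of each ligand transcript with its 95% confidence interval in resistant 786-O over 786-O (circles), resistant A498 over A498 (squares) and resistant A498 over 786-O (triangles). Filled symbols were called at an adjusted p under 0.05 by edgeR and open symbols were not. VEGFB and PGF lie to the right of 0 in all 3 comparisons, and VEGFA, PDGFC and PDGFD lie to the left.

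Among the PDGF ligands, PDGFC and PDGFD were lower in both resistant cultures, whereas PDGFA and PDGFB were called lower in resistant A498 and not in resistant 786-O. PDGFA and PDGFB are secreted as active dimers after intracellular cleavage, and PDGFC and PDGFD need extracellular removal of a CUB domain.

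PDGFC (ENSG00000145431.11, chr4:156760454-156971799, minus strand) was at 63.2, 64.3 and 63.0 CPM in 786-O and 25.5, 28.7 and 24 CPM in resistant 786-O. It was at 46.1, 43.1 and 42.2 CPM in A498 and 27.0, 28.6 and 27.9 CPM in the libraries labelled resistant A498. The resistant groups overlapped each other and lay below both parental groups. The log2 fold change was -1.29 ± 0.06 (edgeR adjusted p = 1.77e-10) in resistant 786-O over 786-O, -0.66 ± 0.07 (edgeR adjusted p = 2.78e-07) in resistant A498 over A498 and -1.19 ± 0.06 (edgeR adjusted p = 5.83e-10) in resistant A498 over 786-O. Resistant A498 and resistant 786-O did not differ beyond their spread (0.10, 95% confidence interval -0.04 to 0.24), although the difference was 0.17 and called without replicate 2 of resistant 786-O.

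PDGFD (ENSG00000170962.13, chr11:103907189-104164379, minus strand), a ligand of PDGFRB, was close to the limit of detection. Raw counts were 14, 22 and 28 in 786-O, 3, 8 and 1 in resistant 786-O, 100, 68 and 87 in A498, and 2, 1 and 0 in the libraries labelled resistant A498. The 4 groups separated except for resistant 786-O and resistant A498. Summed counts were scaled by the TMM library sizes that CPM use. The level in 786-O was then 6.06 times that in resistant 786-O (exact 95% counting interval 3.24 to 12.3), and the level in A498 was 74.8 times that in resistant A498 (25.3 to 365). Against 786-O, whose own level was below that of A498 by a factor of 5.83 (4.41 to 7.79), the ratio to resistant A498 was 12.8 (4.20 to 63.9). PDGFD was called lower by edgeR in each of these comparisons, with adjusted p of 0.000161, 2.19e-08 and 0.000193 for resistant 786-O over 786-O, resistant A498 over A498 and resistant A498 over 786-O. Single libraries moved these ratios. Of the 12 counts in resistant 786-O, 8 came from replicate 2, and without it the ratio of 786-O to resistant 786-O was 12.4 (4.63 to 47.1). The ratio of A498 to resistant A498 was 142 (25.3 to 5643) without replicate 1 of resistant A498 and 48.7 (16.5 to 238) without replicate 3, and that of 786-O to resistant A498 was 24.4 (4.23 to 980) and 8.36 (2.74 to 41.6). PDGFD shares 193 exonic bases with DDI1 on the opposite strand, 4.53% of its exons.

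PDGFA (ENSG00000197461.13, chr7:497258-520296, minus strand), a ligand of PDGFRA, differed in direction between the lines as labelled. It was at 18.2, 18.9 and 17.8 CPM in 786-O and 23.4, 23.5 and 23.3 CPM in resistant 786-O. It was at 33.8, 33.3 and 34.3 CPM in A498 and 14.3, 16.3 and 15.2 CPM in the libraries labelled resistant A498. No groups overlapped, and the order was A498, resistant 786-O, 786-O and resistant A498. The log2 fold change was 0.36 ± 0.06 (edgeR adjusted p = 5.65e-05) in resistant 786-O over 786-O and -1.15 ± 0.06 (edgeR adjusted p = 1.77e-10) in resistant A498 over A498, but -0.26 ± 0.06 (edgeR adjusted p = 0.00148) in resistant A498 over 786-O. The rise in resistant 786-O was 0.17, still called, with GC and length trends removed, and the fall against 786-O was -0.11 and not called when libraries were scaled by size alone.

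PDGFB (ENSG00000100311.17, chr22:39223359-39244982, minus strand), which recruits pericytes through PDGFRB, was even across 3 groups. It was at 61.3, 61.1 and 61.4 CPM in 786-O, 62.3, 64.2 and 66.3 CPM in resistant 786-O and 57.8, 57.0 and 64.8 CPM in A498. The libraries labelled resistant A498 held 27.5, 33 and 31.8 CPM and lay apart below the rest. PDGFB was lower in resistant A498 than in A498 (log2 -0.97 ± 0.07; edgeR adjusted p = 5.76e-09), than in 786-O (-1.0 ± 0.07; edgeR adjusted p = 7.44e-09) and than in resistant 786-O (-1.07 ± 0.07; edgeR adjusted p = 3.40e-08). In resistant 786-O over 786-O the difference was 0.07 (95% confidence interval -0.07 to 0.21) and not called, and its sign depended on the processing, at 0.21 and called when scaled by library size alone and -0.20 and called with GC and length trends removed. 786-O and A498 did not differ beyond their spread (0.03, 95% confidence interval -0.11 to 0.17).

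PDGFC was lower in both resistant cultures, whereas PDGFB was called lower only in resistant A498, and the ratio of their counts is given for each group. PDGFB had 0.951 to 0.974 counts per count of PDGFC in 786-O and 2.24 to 2.76 in resistant 786-O. The ratio was 1.25 to 1.54 in A498 and 1.02 to 1.15 in the libraries labelled resistant A498.

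FGF2 (ENSG00000138685.15, chr4:122826682-122898236, plus strand), a broad mitogen that acts on endothelial and tumor cells, was at 75, 77.8 and 80.3 CPM in 786-O and 51.8, 72.2 and 54.1 CPM in resistant 786-O. It was at 156, 159 and 151 CPM in A498 and 77.3, 72.9 and 77.6 CPM in the libraries labelled resistant A498. A498 stood alone at the top, and resistant A498 overlapped 786-O. FGF2 was lower in resistant A498 than in A498 (log2 -1.03 ± 0.09; edgeR adjusted p = 8.51e-08) and did not differ beyond the spread from 786-O (-0.03, 95% confidence interval -0.23 to 0.16). The parental lines differed by a similar amount (786-O over A498 -1.0 ± 0.09; edgeR adjusted p = 9.24e-08). In resistant 786-O over 786-O the difference was -0.39 ± 0.09 (edgeR adjusted p = 0.00156), -0.56 without replicate 2 of resistant 786-O, and -0.07 and not called with GC and length trends removed.

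NUDT6, a nudix hydrolase gene, lies across the 3′ end of FGF2 on the opposite strand and shares 804 exonic bases with it, 11.8% of the FGF2 exons and 12.2% of its own. In a check on antisense genes, given at the end, the deposited counts did not separate the strands. The study states a stranded kit and strand-specific counting, and the cause of this difference was not tested. Reads from the shared bases therefore cannot be assigned with certainty to either gene. NUDT6 counts were 21.0% to 30.5% of the FGF2 counts across libraries. With the counts of both genes summed, the log2 fold change was -0.95 in resistant A498 over A498 and 0.04 in resistant A498 over 786-O, beside -1.03 and -0.03 for FGF2 alone. NUDT6 itself was lower in resistant A498 than in A498 (-0.64; edgeR adjusted p = 5.59e-06) and was not called in resistant 786-O over 786-O (-0.09; edgeR adjusted p = 0.349).

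The receptors of these ligands were examined as a list of 11 genes. Several receptors that sunitinib inhibits were nearly absent as transcripts, with at most 2 counts of FLT1, 11 of KDR, 8 of FLT4 and 8 of PDGFRA in any library, and these 4 genes were not tested. Of the 7 tested, 3 were called higher and 3 lower in resistant 786-O over 786-O, 3 and 4 in resistant A498 over A498, and 4 and 2 in resistant A498 over 786-O. That is 6, 7 and 6 of 7 called in either direction, against 68.5%, 72.7% and 63.6% of all genes tested, of which 35%, 36.3% and 31.6% were higher and 33.5%, 36.4% and 32.1% lower. The median log2 fold changes were 0.32, -0.69 and 0.34, beside 0.03, -0.0041 and 0.0029 over all genes tested. These shares and medians over all genes are also the background of the lists below.

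NRP1 and NRP2, co-receptors of the VEGF ligands, fell in both resistant cultures. NRP1 was at 117 CPM in 786-O and 40.5 in resistant 786-O (log2 -1.53 ± 0.11; edgeR adjusted p = 1.27e-08), and at 289 CPM in A498 and 68.0 in resistant A498 (-2.09 against A498 and -0.78 against 786-O). NRP2 was at 232 and 148 CPM in 786-O and resistant 786-O (-0.65) and at 559 and 102 CPM in A498 and resistant A498 (-2.45, and -1.18 against 786-O).

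FGFR2 and FGFR3 rose in both. FGFR2 was at 11.6 CPM in 786-O, 46.5 in resistant 786-O, 17.2 in A498 and 74.1 in resistant A498, with log2 fold changes of 2.01 ± 0.27 in resistant 786-O over 786-O (edgeR adjusted p = 1.08e-05), 2.11 in resistant A498 over A498 and 2.68 in resistant A498 over 786-O. Its resistant 786-O libraries held 56.4, 20.8 and 62.4 CPM, the lowest being replicate 2. FGFR3 was at 2.64 CPM in 786-O, 9.54 in resistant 786-O, 2.66 in A498 and 12.3 in resistant A498, with log2 fold changes of 1.85, 2.21 and 2.22. FGFR1 rose by 0.32 in resistant 786-O over 786-O, fell by 0.69 in resistant A498 over A498 and rose by 0.34 in resistant A498 over 786-O on the log2 scale, all called by edgeR. FGFR4 fell in the first 2 comparisons (-0.40 and -1.56) and was not called in the last (0.17); its fall in resistant 786-O was -0.26 and not called when scaled by library size alone and -0.82 with GC and length trends removed.

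PDGFRB, the receptor of PDGFB and PDGFD, was at 5.49 CPM in the libraries labelled resistant A498 against 0.241 in A498 and 0.268 in 786-O (log2 4.43 and 4.36; edgeR adjusted p = 2.44e-08 and 2.09e-08). In resistant 786-O it was at 0.397 CPM, a difference of 0.61 from 786-O that was not called, and that was 1.02 and called without replicate 2. The group with the highest PDGFRB level was thus also the group with the lowest PDGFB level.

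**Figure D5:**
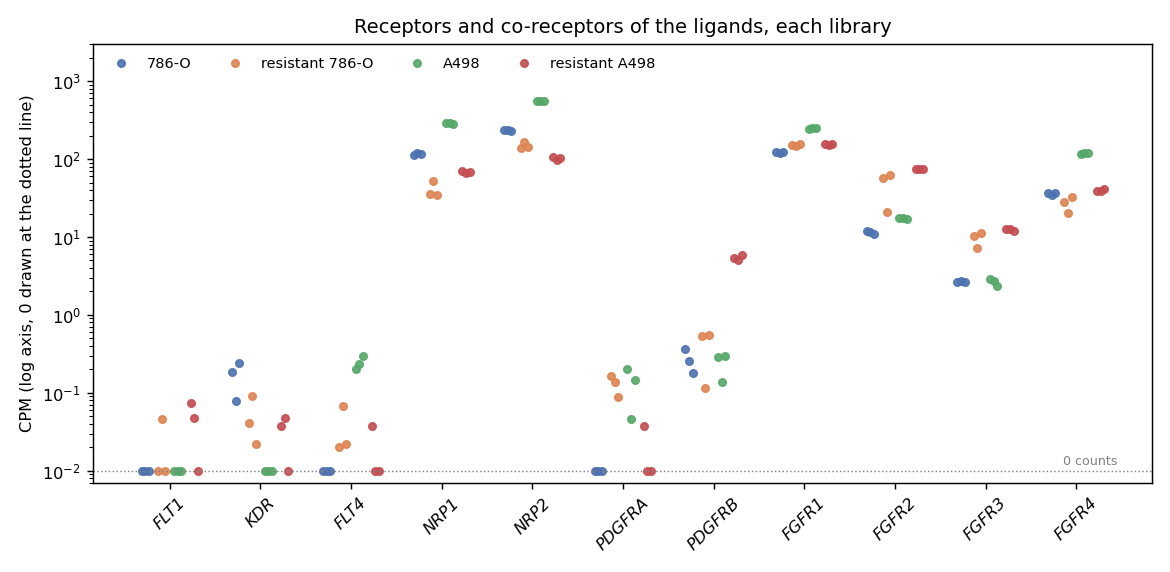
Level of the 11 receptor and co-receptor transcripts in each library, in CPM on a log axis, with libraries at 0 counts drawn on the dotted line. Each point is a library, and colors mark the 4 groups. FLT1, KDR, FLT4 and PDGFRA lie below 0.3 CPM throughout, and PDGFRB exceeds 5 CPM only in the resistant A498 libraries.

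Genes that process or release the ligands formed a list of 12, all tested. In resistant 786-O over 786-O 5 were called higher and 5 lower, in resistant A498 over A498 4 and 6, and in resistant A498 over 786-O 3 and 4, with median log2 fold changes of 0.20, -0.18 and 0.05. Calls in either direction were 10, 10 and 7 of 12, against 68.5%, 72.7% and 63.6% of all genes. FURIN and PCSK7, proprotein convertases, were higher in resistant 786-O (0.57 and 0.60) and in resistant A498 over A498 (1.52 and 0.49). Against 786-O, FURIN was 0.14 higher in resistant A498 (edgeR adjusted p = 0.0255), a call lost without replicate 2 or 3 of 786-O, and PCSK7 was not called (0.15). CCBE1, which is needed for VEGFC maturation, was lower in all 3 comparisons (-0.78, -0.36 and -1.36). ADAMTS1, a protease that can bind and sequester VEGFA, was lower in resistant 786-O (-1.32) and in resistant A498 over 786-O (-1.83), and not called in resistant A498 over A498 (0.22).

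Of 21 other angiogenic ligands in the table, 16 were tested, with 10 called higher and 5 lower in resistant 786-O over 786-O, 7 and 8 in resistant A498 over A498, and 5 and 5 in resistant A498 over 786-O, and median log2 fold changes of 0.42, -0.10 and -0.08. In either direction 15, 15 and 10 of 16 were called, against 68.5%, 72.7% and 63.6% of all genes. EDN1, the vasoconstrictor endothelin, and CCN2, a matricellular growth factor, were higher in all 3 comparisons (EDN1 1.29, 2.43 and 0.35, the last not called without replicate 3 of 786-O, and CCN2 1.28, 1.98 and 1.12). FGF5 differed in direction, at -1.06 in resistant 786-O over 786-O, 2.53 in resistant A498 over A498 and -1.77 in resistant A498 over 786-O. ANGPTL4, an angiopoietin-like protein that inhibits lipoprotein lipase, was 1.98 higher on the log2 scale in resistant 786-O than in 786-O, but its resistant 786-O libraries ranged from 13.3 to 72.4 CPM, and the difference was 0.69 without replicate 2. It was called lower in resistant A498 over A498 (-2.07; edgeR adjusted p = 0.00415) and not called in resistant A498 over 786-O (-0.87; edgeR adjusted p = 0.21), although the last difference was -0.87 and called without replicate 2 of resistant 786-O, which enters the shared estimate of the spread.

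Of 14 angiogenesis inhibitors, 12 were tested, with 5 called higher and 3 lower in resistant 786-O over 786-O, 6 and 4 in resistant A498 over A498, and 6 and 4 in resistant A498 over 786-O, and median log2 fold changes of 0.69, 0.19 and 0.68. The calls in either direction, 8, 10 and 10 of 12, stand against 68.5%, 72.7% and 63.6% of all genes. SEMA3F, a semaphorin that signals through NRP2, was higher in all 3 (1.49, 1.14 and 1.49), as was COL18A1, whose product is the source of endostatin (1.33, 1.54 and 0.70, or 0.67 in the first and 0.34 in the last with GC and length trends removed). SEMA3A, which signals through NRP1, was lower in resistant 786-O (-1.21) and in resistant A498 over 786-O (-1.25) and higher in resistant A498 over A498 (0.59). ISM1, a secreted inhibitor, was lower in resistant 786-O (-0.95) and in resistant A498 over 786-O (-1.45), and not called in resistant A498 over A498 (-0.20).

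The oxygen-sensing regulators of VEGFA formed a list of 10, of which 9 were tested. In resistant 786-O over 786-O 6 were called higher and 1 lower, in resistant A498 over A498 4 and 3, and in resistant A498 over 786-O 3 and 1, with median log2 fold changes of 0.32, 0.09 and 0.07. Called in either direction were 7, 7 and 4 of 9, against 68.5%, 72.7% and 63.6% of all genes. EPAS1, which encodes HIF-2α, was higher in all 3 comparisons (log2 0.32, 0.57 and 0.55; edgeR adjusted p = 0.0039, 2.94e-05 and 5.03e-05), and VEGFA was lower in the same comparisons. The EPAS1 level was 156, 165.0 and 162.6 CPM in 786-O and 211, 164.7 and 229 CPM in resistant 786-O. Replicate 2 of resistant 786-O thus lay within the range of 786-O. ARNT2, a dimerization partner, was also higher in all 3 (1.34, 0.45 and 1.23, the resistant A498 over A498 call being lost without replicate 3 of A498). HIF1A was at 305 CPM in A498 against 10.8 in 786-O, 9.18 in resistant 786-O and 8.79 in the libraries labelled resistant A498. The prolyl hydroxylase genes EGLN1 and EGLN3 were higher in resistant 786-O (0.78 and 0.70), whereas in resistant A498 over A498 EGLN3 was lower (-1.65) and EGLN1 was not called (-0.18).

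Genes with the most similar pattern over the 12 libraries were sought for PGF and PDGFD, the members whose group means spanned more than 2 on the log2 scale. By the root mean square difference of centered log2 CPM, the nearest to PGF were HES4 (0.39), LINC02908 (0.40) and PDXP-DT (0.40), and the nearest to PDGFD were FAM50B (0.46), ENSG00000256542 (0.52) and DGKA (0.52). HES4, a Notch-responsive repressor gene, had means of 13.5 CPM in 786-O, 34.0 in resistant 786-O, 3.31 in A498 and 19.3 in resistant A498, the same order of groups as PGF. FAM50B had means of 5.29, 1.47, 22.3 and 1.11 CPM in the same groups, the order of the PDGFD means. PDGFD itself did not separate the resistant groups. These genes were picked for their likeness over the same libraries, so a shared order follows from the choice and is no separate result.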

How the data were processed

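Messenger RNA of 4 cultures was sequenced in 12 libraries with a stranded library kit. Per the submitters' processing notes, bcl2fastq 2.19.0, Trimmomatic 0.36.6, HISAT2 2.1.0 and featureCounts 1.6.3 were used, with reads counted on GRCh38 and GENCODE 33. The authors deposited whole-number counts per gene, not normalized. Samples were grouped by their labels.

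Counts were scaled by TMM, filtered with edgeR's default low-count rule and tested in 1 fit of all 12 libraries with 4 group means (edgeR 4.0.16, quasi-likelihood test, Benjamini-Hochberg adjustment over 19929 genes, threshold 0.05, prior count 0.125). CPM use TMM library sizes. Lengths, positions and overlaps come from GENCODE 44 on GRCh38. DESeq2 1.42.0 and the other alternatives are described in the closing section. The fit was tested on simulated data.

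Members and gene lists were chosen with earlier results of these data known. All members were named; from each further list, up to 4 genes with the largest called change in resistant 786-O over 786-O and at least 5 CPM in the higher group were named, plus direct receptors, NUDT6, EPAS1 and HIF1A. CPM precision is limited by counting at low levels: intervals of count ratios are exact 95% intervals and cover counting error only, since reads carry no molecular identifiers. Replicate numbers did not pair the libraries, with correlations of same-numbered deviations from -0.18 to 0.20.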

Additional observations from a re-analysis of the deposited data

Results flagged for a closer look

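For 7 of the 9 ligands the change in resistant A498 over A498 differed from that in resistant 786-O over 786-O by the edgeR test of the difference itself, against 68.3% of all genes tested. The difference of the log2 fold changes was -1.5 ± 0.08 for PDGFA (edgeR adjusted p = 5.04e-10), the only member called in opposite directions, and -1.04 ± 0.09 for PDGFB (edgeR adjusted p = 1.28e-07). It was -3.57 ± 0.92 for PDGFD (edgeR adjusted p = 0.00297), whose counts in the resistant libraries were 8 or fewer and whose difference was -2.57 (edgeR adjusted p = 0.0444) without replicate 2 of resistant 786-O, and -0.64 ± 0.13 for FGF2 (edgeR adjusted p = 0.000442). Among the members called, PDGFC alone had a positive difference (0.63 ± 0.09, edgeR adjusted p = 1.71e-05). The difference was -0.30 for VEGFA (edgeR adjusted p = 0.00346), or 0.04 and not called with GC and length trends removed, and -0.33 for VEGFC (edgeR adjusted p = 0.0122), or -0.05 and not called with those trends removed and -0.25 and not called without replicate 3 of resistant A498. VEGFB and PGF were not called (-0.07 and 0.61). All of these rest on A498 as the reference for libraries that resembled 786-O.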

How the results depend on the processing

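With each library left out in turn, 7 to 8 of the 9 ligands were called in resistant 786-O over 786-O, 9 in resistant A498 over A498, 8 in resistant A498 over 786-O, 6 to 7 in 786-O over A498, 6 to 8 in resistant A498 over resistant 786-O, 7 in resistant 786-O over A498 and 6 to 7 for the difference between the lines. A replicate block left these counts of ligands at 7, 9, 8, 7, 7, 7 and 7, as without it. The replicate numbers did not pair the libraries. For the runs with a library left out or a replicate block, the share of all genes called was not computed. Their counts therefore have no background and are not a result particular to the ligands. With a log2 fold change beyond 1 also required, the counts of ligands were 3, 4, 2, 3, 1, 4 and 3. The study's unadjusted test on raw counts called 4 ligands in resistant A498 over A498, and a minimum of 10 counts in every library left 4 called in 786-O over A498: it removed PGF and PDGFD from the test, and VEGFC was no longer called (0.10). The share of all genes called was not computed for either setting, so these counts have no background. The rises of VEGFB and PGF and the falls of PDGFC and PDGFD in resistant 786-O over 786-O and resistant A498 over A498 kept their direction in every alternative run. Of 36 group levels, 24 moved by less than 1 SD with scaling by library size alone and 30 with DESeq2 size factors, where levels moved by factors of 0.937 to 1.04 and 0.983 to 1.02.

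Signs reversed in these log2 values, and the cause was not tested. By library size alone they were VEGFC 0.033 and NUDT6 0.053 (resistant 786-O over 786-O), FGF2 0.12 (resistant A498 over 786-O) and PDGFB -0.051 (786-O over A498). FGF2 in resistant A498 over 786-O was also 0.0022 with DESeq2 size factors, 0.012 with a minimum of 10 counts, 0.0051 with only the groups compared, -0.061 to 0.022 with a library left out (the reversal without replicate 2 of resistant A498) and 0.040 summed with NUDT6. PDGFB in 786-O over A498 was also -0.023 with DESeq2 size factors and when thinned to equal depth, -0.015 with the Wald test, -0.038 with a minimum of 10 counts and -0.014 with only the groups compared. VEGFA in 786-O over A498 was 0.0083 with no filter, and VEGFC in resistant 786-O over A498 was -0.0048 to 0.15 with a library left out, negative without replicate 2 of resistant 786-O. With GC and length trends removed, the values were PDGFB -0.20, HIF1A 0.16 and NUDT6 0.11 (resistant 786-O over 786-O), ISM1 0.048 (resistant A498 over A498), PCSK7 -0.084 (resistant A498 over 786-O), VEGFA 0.20 (786-O over A498), VEGFB 0.039 and PDGFC -0.029 (resistant A498 over resistant 786-O), and VEGFA 0.039 and VEGFB 0.54 (difference between the lines). On raw counts, which differ in depth, the values were VEGFC 0.072 and NUDT6 0.085 (resistant 786-O over 786-O), VEGFB -0.049, PCSK7 -0.58, FURIN -0.59, EDN1 -0.38, COL18A1 -0.033, EGLN1 -0.17, EGLN3 -0.61, EPAS1 -0.18, FGFR1 -0.39, FGFR4 -0.56 and NUDT6 -0.41 (resistant A498 over 786-O), VEGFA 0.51 (786-O over A498), PDGFC -0.82 and FGF2 -0.55 (resistant A498 over resistant 786-O), and VEGFA 0.49 and PDGFA 0.20 (resistant 786-O over A498). The depth limits PGF and PDGFD most, which had as few as 3 and 0 counts in a library.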

Other observations

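The strand of the deposited counts was checked on 149 antisense long noncoding RNA genes that lie at least 95% inside the exons of a protein-coding gene with a mean count of at least 2000. Counts per base of these antisense genes were a median of 1.90 times those of the genes around them (quartiles 0.958 and 2.72), and 0 of the 149 had no count in all libraries. The cause was not tested.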
